A study of Mus musculus with 11 samples.

Results

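Igfbp4, Adgrg3, Fxyd5, Emb, Tbxa2r and Arl11 are 6 genes of 23071 identifiers in a table of mouse RNA levels, and the mean level of each climbed in order from wild-type progenitor B cells through Ebf1 heterozygous progenitor B cells to leukemia. They were picked by name from that table because of this order. Their own levels in the 3 groups are therefore described here without a test. RNA of C57BL/6 mice was sequenced in 11 libraries. Wild-type progenitor B cells came from bone marrow by column purification (3 libraries, each a pool of 3 to 7 mice). Ebf1+/- progenitor B cells, which carry 1 functional copy of Ebf1, were obtained in the same way (3 libraries, also pools of 3 to 7 mice). Leukemic B cells came from lymph node suspensions of mice with the genotype Pax5+/- x Ebf1+/- (5 libraries, each of 1 mouse), which were flash frozen. The leukemias share the Ebf1 heterozygous genotype with the second group and differ from both other groups in Pax5 genotype, tissue and handling, and these differences cannot be told apart. Neither age nor sex is stated in the labels. Levels are in FPKM, fragments per kilobase of a transcript relative to the reads of the library, so genes can be compared with each other per length.

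Ebf1 and Pax5 are transcription factors that commit progenitors to the B lineage and hold them there, and loss of a copy of either is frequent in B cell acute lymphoblastic leukemia. The 6 genes encode proteins of different kinds. Igfbp4 is a secreted protein that binds insulin-like growth factors and limits their access to their receptor. Adgrg3 (GPR97) is an adhesion G protein-coupled receptor best known from granulocytes, and Tbxa2r is the G protein-coupled receptor for thromboxane A2, best known from platelets. Fxyd5 (dysadherin) is a small membrane protein that associates with the Na,K-ATPase and can reduce cell adhesion. Emb (embigin) is an immunoglobulin-superfamily protein that carries monocarboxylate transporters to the cell surface. Arl11 is a small GTPase of the ARF-like family.

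In GRCm38 with GENCODE M21 all 6 are protein-coding and lie on 6 chromosomes. Igfbp4 spans 99041244 to 99054392 on the plus strand of chromosome 11, and Adgrg3 spans 95017692 to 95045250 on the plus strand of chromosome 8. Fxyd5 spans 31032722 to 31042481 on the minus strand of chromosome 7 and holds the microRNA gene Mir7050 on the same strand. Emb spans 117208536 to 117274415 on the plus strand of chromosome 13, Tbxa2r spans 81328731 to 81335172 on the plus strand of chromosome 10, and Arl11 spans 61309753 to 61311936 on the plus strand of chromosome 14. Emb has the antisense gene Gm17509, and Arl11 the antisense gene 1700109G14Rik. Whether strand was used in counting is not given, so reads of these antisense partners could not be told apart from those of Emb and Arl11. 1700109G14Rik was listed at 0 in all 11 libraries.

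The promoters of 3 of the genes are shown because they differ in base composition and in the motifs searched, while the RNA levels of the 3 genes followed the same order. The windows are RefSeq's on GRCm38.p6 and run from 250 bases before to 50 bases after the annotated start, plus strand, 5′ to 3′. Capitals mark the E-box CAGGTG bound by E proteins, read on either strand, and the TATA box TATAAA. The start used for Emb is not the first base of the GENCODE gene.
Adgrg3, chr8:95017442-95017741: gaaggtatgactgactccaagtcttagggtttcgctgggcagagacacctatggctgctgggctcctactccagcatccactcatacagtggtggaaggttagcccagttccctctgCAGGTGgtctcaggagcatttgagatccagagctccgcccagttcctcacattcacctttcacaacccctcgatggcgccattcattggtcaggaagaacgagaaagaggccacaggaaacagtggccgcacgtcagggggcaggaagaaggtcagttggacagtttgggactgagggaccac
Emb, chr13:117220323-117220622: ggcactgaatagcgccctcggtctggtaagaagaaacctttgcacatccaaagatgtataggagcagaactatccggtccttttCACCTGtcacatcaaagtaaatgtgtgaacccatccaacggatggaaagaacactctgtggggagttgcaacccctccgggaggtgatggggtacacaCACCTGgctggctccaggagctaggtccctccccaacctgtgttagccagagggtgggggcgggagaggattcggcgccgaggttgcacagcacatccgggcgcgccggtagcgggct
Igfbp4, chr11:99040994-99041293: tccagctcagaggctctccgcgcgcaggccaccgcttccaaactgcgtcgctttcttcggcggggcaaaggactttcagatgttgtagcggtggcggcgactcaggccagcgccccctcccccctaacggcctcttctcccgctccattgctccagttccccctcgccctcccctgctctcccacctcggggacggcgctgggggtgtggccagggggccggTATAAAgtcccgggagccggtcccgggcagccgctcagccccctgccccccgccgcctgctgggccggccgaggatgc

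All 6 genes had a window, 7 in all because Tbxa2r has 2 starts, and they were searched on both strands beside 32851 windows of the same length. CAGGTG was found in 2 of the 7 windows, at 133 bases before the start of Adgrg3 and at 166 and 68 bases before that of Emb, and in 20.2% of all windows. TATAAA was found at 28 bases before the start of Igfbp4 alone, and in 13.6% of all windows. The Ebf1 motif (TCCC and GGGA with 2 bases between), the Pax5 core GCGTNAC, the ETS motif CCGGAA, the Runx motif TGTGGT and the STAT motif TTCNNNGAA were found in 0 of the 7, and in 0.904%, 5.96%, 14.9%, 16.8% and 8.3% of all windows. CCAAT was found in 3 of the 7 (37.4% of all windows) and the SP1 motif GGGCGG in 4 (35.7%). The Igfbp4 window held 27 CpG dinucleotides and that of Emb 14, beside a median of 7, while those of Adgrg3, Fxyd5 and Arl11 held 7, 6 and 5. No motif searched was present in all 7 windows.

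Sequencing depth was similar in the groups, with library totals of 8.51 to 15.31 in units of 1e6 reads, and a single read on 2000 bases of transcript equalled 0.0327 to 0.0588 FPKM. The 6 genes had between 85 reads (Arl11 in wild-type replicate 1) and 5113 reads (Igfbp4) per library. Alignment software was listed as BWA for the wild-type and leukemia libraries and as TopHat2 with Cufflinks for the Ebf1+/- libraries, so software and genotype cannot be told apart in any comparison with that group. Of the targeted genes, Pax5 was lower in leukemia than in wild type (119 ± 38.3 against 222 ± 77.9 FPKM, SD, n = 5 and 3; log2 difference -0.91, SE 0.3, limma adjusted p 0.0338), a call that was lost without wild-type replicate 1 or leukemia replicate 4, with no filter on low levels and with all 3 groups in 1 fit (adjusted p over all alternatives 0.0229 to 0.138). Ebf1 was 99.1 ± 14.3 FPKM in wild type, 71.2 ± 24.1 in Ebf1+/- cells and 66.6 ± 10.8 in leukemia. It was called lower in leukemia than in wild type (log2 difference -0.57, limma adjusted p 0.0132, range over alternatives 0.00729 to 0.0631, lost without wild-type replicate 1 or 2) and was not called in Ebf1+/- cells (-0.53, limma adjusted p 0.717). Wild-type replicate 2 and Ebf1+/- replicate 2 correlated at 0.989 across genes, more closely than any pair of libraries within the wild-type or the Ebf1+/- group (at most 0.984). Whether either library is mislabelled is not settled by the labels or the table, which bears on every value of Ebf1+/- replicate 2. Without Ebf1+/- replicate 2, the 6 log2 differences of Ebf1+/- against wild type ran from 1.26 to 1.65 and those of leukemia against Ebf1+/- from 0.21 to 1.81, beside 1.21 to 1.48 and 0.26 to 2.03 with it.

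The secreted factor Igfbp4 had the highest level of the 6 in every group. Its wild-type libraries measured 22.8, 34.0 and 26.0 FPKM, the Ebf1+/- libraries 75.7, 74.7 and 83.9, and the leukemias 171, 189, 178, 179 and 122. The 3 groups did not overlap, and the leukemia of replicate 5 lay apart from the other 4 on the low side. Mean levels were 27.6 ± 5.74, 78.1 ± 5.09 and 167 ± 26.5 FPKM (SD, n = 3, 3 and 5). The mean was 2.83-fold higher in Ebf1+/- than in wild-type cells (SE 0.36) and a further 2.14-fold higher in leukemia (SE 0.17), 6.07-fold in all (SE 0.84). Igfbp4 made up 91.8% of the summed FPKM of the 7 IGF-binding protein genes in wild type and 98.5% in leukemia, and no other of them passed 3.28 FPKM in a library (Igfbp7).

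Among the receptors, Adgrg3 had the steepest course of the 6 genes. Its levels were 8.39, 8.68 and 11 FPKM in wild type, 33.1, 19.2 and 29.4 in Ebf1+/- cells, and 128, 100, 107, 101 and 126 in leukemia. The groups did not overlap, and the widest gap lay between the highest Ebf1+/- library and the lowest leukemia. The means of 9.36 ± 1.43, 27.2 ± 7.2 and 112 ± 13.7 FPKM correspond to 2.91-fold (SE 0.51) and 4.13-fold (SE 0.67) steps, and to 12-fold between wild type and leukemia (SE 1.2). Adgrg3 is the only one of the 6 whose second step was larger than its first, with 41.1% of the log2 difference between wild type and leukemia reached in Ebf1+/- cells. It accounted for 4.33% of the summed FPKM of 29 adhesion receptor genes in wild type, 9.88% in Ebf1+/- cells and 40.4% in leukemia, where it ranked second to Adgrg1.

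Tbxa2r measured 10.3, 12 and 10.7 FPKM in wild type, 29.6, 26.5 and 26.0 in Ebf1+/- cells and 44.8, 31.5, 51.1, 59.8 and 40.6 in leukemia. The first 2 groups were tight and the leukemias were the most scattered of the 6 genes, with an SD of 0.34 on the log2 scale beside a median of 0.16 for genes of similar level. Groups did not overlap. Mean levels of 11 ± 0.913, 27.4 ± 1.98 and 45.5 ± 10.7 FPKM gave steps of 2.49-fold (SE 0.16) and 1.66-fold (SE 0.19). Among the 9 prostanoid receptor genes it ranked at 3 in wild type, behind Ptger1 and Ptger4, at 2 in Ebf1+/- cells and at 1 in leukemia, with 17.4%, 34.5% and 47.5% of their summed FPKM.

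The membrane proteins Fxyd5 and Emb had the most similar courses of any pair of the 6 (root mean square difference 0.27 between their log2 profiles over 11 libraries, each centred on its mean). Fxyd5 measured 21.9, 21.7 and 21.6 FPKM in wild type, 91.0, 42.0 and 54.2 in Ebf1+/- cells and 100, 92.1, 98.6, 94.5 and 84.8 in leukemia. Ebf1+/- replicate 1 lay above leukemia replicate 5, so the upper groups overlapped. The wild-type values varied by 0.556%, less than the 5.11% that read counting alone would give for 1 library, so that SD understates their error. Mean levels were 21.7 ± 0.121, 62.4 ± 25.5 and 94.1 ± 6.15 FPKM, with steps of 2.87-fold (SE 0.68) and 1.51-fold (SE 0.36). Fxyd5 was the most abundant of the 7 Fxyd genes in each group. Its share of their summed FPKM was 82.2% in wild type, 68.2% in Ebf1+/- cells and 92.0% in leukemia, so the share did not follow the order of the level.

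Emb measured 16.8, 13.8 and 20.6 FPKM in wild type, 51.3, 29.4 and 58.2 in Ebf1+/- cells and 76.5, 74.0, 76.7, 71.2 and 90.0 in leukemia. No group overlapped another, although Ebf1+/- replicate 2 lay closer to wild type than to the other libraries of its own group. Mean levels were 17.1 ± 3.41, 46.3 ± 15.1 and 77.7 ± 7.22 FPKM, with steps of 2.71-fold (SE 0.6) and 1.68-fold (SE 0.32). Among embigin and its relatives basigin (Bsg) and neuroplastin (Nptn), Emb was the least abundant in wild type, with 10.4% of the sum, and second to Bsg in leukemia with 39.5%.

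The GTPase Arl11 was the least abundant of the 6 and had the smallest second step. It measured 5.17, 5.12 and 4.47 FPKM in wild type, 17.0, 11.7 and 10.1 in Ebf1+/- cells and 14.8, 14.1, 13.6, 21.3 and 14.0 in leukemia. Every Ebf1+/- library lay above wild type, while Ebf1+/- replicate 1 lay above 4 of the 5 leukemias. Mean levels were 4.92 ± 0.391, 12.9 ± 3.62 and 15.6 ± 3.23 FPKM, 2.63-fold (SE 0.44) and then 1.20-fold (SE 0.22). Of the log2 difference between wild type and leukemia, 82.3% was reached in Ebf1+/- cells, and the second log2 step of 0.26 fell to 0.11 without Ebf1+/- replicate 3 and was 0.46 without replicate 1. Its 85 reads in wild-type replicate 1 allow 4.13 to 6.39 FPKM (exact Poisson 95% interval, counting error only). Arl11 ranked 13 of 19 Arl genes in wild type and 6 of 19 in leukemia, at 0.782% and 3.8% of their sum.

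**Figure D1:**
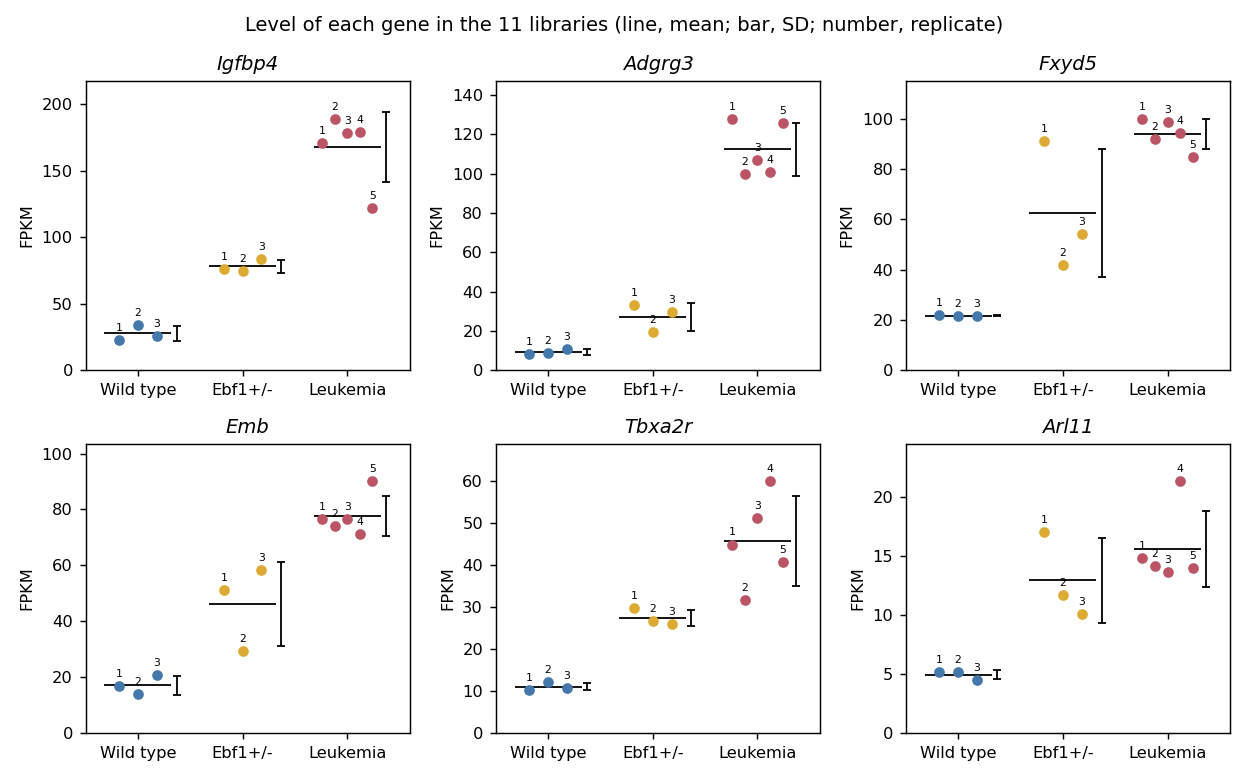
FPKM of each of the 6 genes in every library (points, linear axis from 0, numbered by replicate) with the group means (lines) and SD (bars), for wild type (3), Ebf1+/- (3) and leukemia (5). Every Ebf1+/- point lies above the wild-type points of its gene, and only Fxyd5 and Arl11 have Ebf1+/- points among the leukemias.

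Side by side, the first steps were alike in size, between 2.49-fold and 2.91-fold, and the second steps were not, between 1.20-fold and 4.13-fold. On the log2(FPKM + 1) scale, which understates differences of low levels, the first steps ran from 1.21 to 1.48 and the second from 0.26 to 2.03. The second steps of Fxyd5 (0.66) and Emb (0.79) depended on single libraries, falling to 0.41 and 0.50 without Ebf1+/- replicate 2, and rising to 0.96 without Ebf1+/- replicate 1 and to 0.98 without replicate 3. All 6 genes had no overlap between Ebf1+/- and wild type (background 7.93% of 11173 genes of mean FPKM at least 1) and between leukemia and wild type (20.6%). For 4 of 6 there was none between leukemia and Ebf1+/- (12.8%), and the same 4, Igfbp4, Adgrg3, Emb and Tbxa2r, had none at both steps (2.27%). Mean levels climbed at both steps for 6 of 6, as the choice requires, and for 27.2% of all genes (3037 of 11173). These counts follow from the choice of the genes and are given only as a description. Among those 3037 genes, ranked by the smaller of their steps, Adgrg3 came at 7, Igfbp4 at 18, Emb at 74, Tbxa2r at 106, Fxyd5 at 126 and Arl11 at 869. Their median smaller step was 0.15, and 34.5% of the log2 difference fell in the first step at the median, beside 41.1% to 82.3% for the 6.

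**Figure D2:**
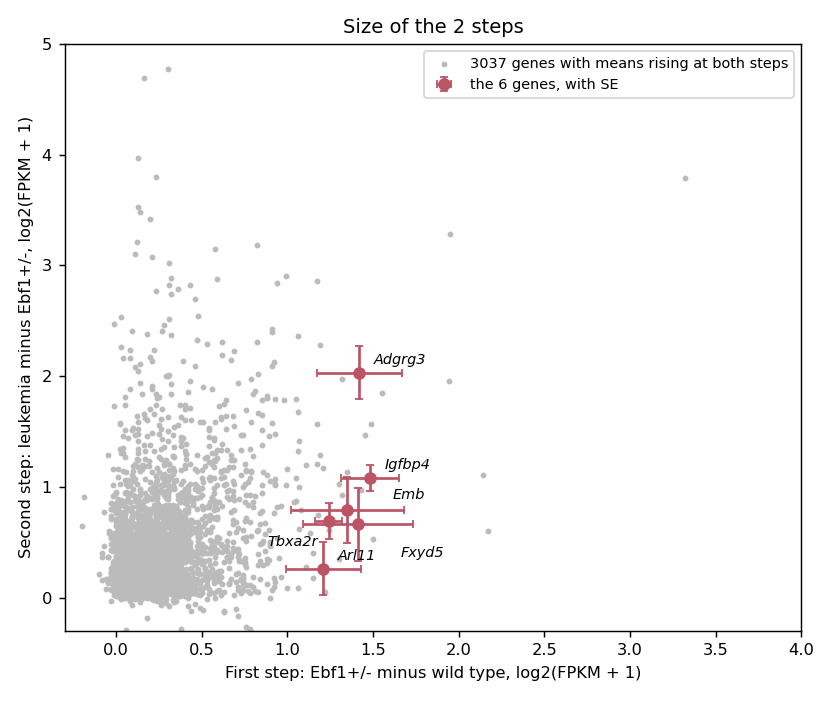
Log2(FPKM + 1) difference of Ebf1+/- minus wild type (x axis) against leukemia minus Ebf1+/- (y axis) for the 6 genes with SE (red) and the 3037 genes whose means climbed at both steps (grey). The 6 lie between 1.21 and 1.48 on the x axis and spread from 0.26 to 2.03 on the y axis, and 7 grey genes lie beyond the axes.

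Wild-type and Ebf1+/- libraries of the same number were set beside each other, because their deviations from the group means correlated at 0.65, 0.32 and 0.69 for numbers 1, 2 and 3. Same-numbered folds were 3.32, 2.2 and 3.23 for Igfbp4 and 3.94, 2.21 and 2.67 for Adgrg3. They were 4.16, 1.93 and 2.51 for Fxyd5, 3.05, 2.13 and 2.83 for Emb, 2.88, 2.2 and 2.42 for Tbxa2r, and 3.29, 2.29 and 2.25 for Arl11. Pair 2 gave the smallest fold for each gene except Arl11. Within the Ebf1+/- group replicate 1 was highest for 4 of the 6 (Adgrg3, Fxyd5, Tbxa2r, Arl11) and replicate 3 for Igfbp4 and Emb, while replicate 2 was lowest for 4. Among the leukemias no library was highest or lowest for more than 2 of the 6 genes.

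Markers of other cells moved with the groups. The summed FPKM of 14 granulocyte markers was 630 to 3430 in wild type, 2730 to 10700 in Ebf1+/- cells and 4.06 to 9.5 in leukemia, where Cebpe was at 0. The highest sum was in Ebf1+/- replicate 1, the library with the highest Adgrg3, Fxyd5, Tbxa2r and Arl11 of its group. All 14 had a positive difference between Ebf1+/- and wild type, with 0 called, and all 14 were lower in leukemia (limma adjusted p under the threshold of 0.05). The 8 platelet markers summed to 87.3 to 490 FPKM in wild type, 149 to 4380 in Ebf1+/- cells and 0.393 to 2.15 in leukemia. The highest of these, Ebf1+/- replicate 3, had the lowest Tbxa2r of its group, 26.0 FPKM. The 8 monocyte markers summed to 331 to 552, 405 to 1720 and 57.2 to 152 FPKM, and 7 erythroid markers to 131 to 732, 303 to 832 and 0.755 to 1.03 FPKM with Car1 at 0 in leukemia. In leukemia Adgrg3 stood at 100 to 128 FPKM with granulocyte markers at or below 9.5 in sum, and Tbxa2r at 31.5 to 59.8 FPKM with platelet markers at or below 2.15. The 7 NK cell markers summed to 19.0 to 30.5 FPKM in wild type, 31.4 to 103 in Ebf1+/- cells and 15.5 to 38.1 in leukemia, with 7 of 7 differences positive between Ebf1+/- and wild type and 0 called. Their lowest Ebf1+/- sum was in replicate 2, the library with the lowest Igfbp4, Adgrg3, Fxyd5 and Emb of its group. Sums of the other lists overlapped between wild type and Ebf1+/-, at 18.5 to 39.3 and 24.6 to 42.1 FPKM for T cells, 11.8 to 53.2 and 14.4 to 51.8 for dendritic cells, and 74.9 to 140 and 51.1 to 84.8 for stroma and endothelium. In leukemia these were 13.9 to 31.7, 0.463 to 10.4 and 25.3 to 42.9 FPKM. In Ebf1+/- cells the granulocyte, monocyte, erythroid, T cell and dendritic sums were lowest in replicate 2, like the NK sum. Platelet and stroma sums were lowest in replicate 1. Granulocyte sums of Ebf1+/- replicates 1, 2 and 3 were 10700, 2730 and 4030 FPKM, and monocyte sums 1720, 405 and 784. Their library order matched that of Adgrg3 and Fxyd5. The order of Igfbp4 and Emb, highest in replicate 3 and lowest in replicate 2, matched that of the NK (98.5, 31.4 and 103 FPKM), T cell, dendritic and erythroid sums. The order of Tbxa2r and Arl11 matched that of the B lineage sums (5090, 3930 and 1760 FPKM). Platelet and stroma sums matched none of the 6. The part of any of these cells in the differences between Ebf1+/- and wild type was not tested. The 10 B lineage markers, which fit the labelled cell type, summed to 2380 to 4060, 1760 to 5090 and 3270 to 4510 FPKM, none at 0. Single markers differed within these sums. Vpreb1 (means 247, 503 and 918 FPKM) and Igll1 (233, 509 and 836) were called higher in leukemia than in wild type. Cd79b and Rag2 were called lower there (limma adjusted p 0.0228 and 0.0496). In bulk samples, more cells that express a gene and more RNA per cell cannot be told apart.

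**Figure D3:**
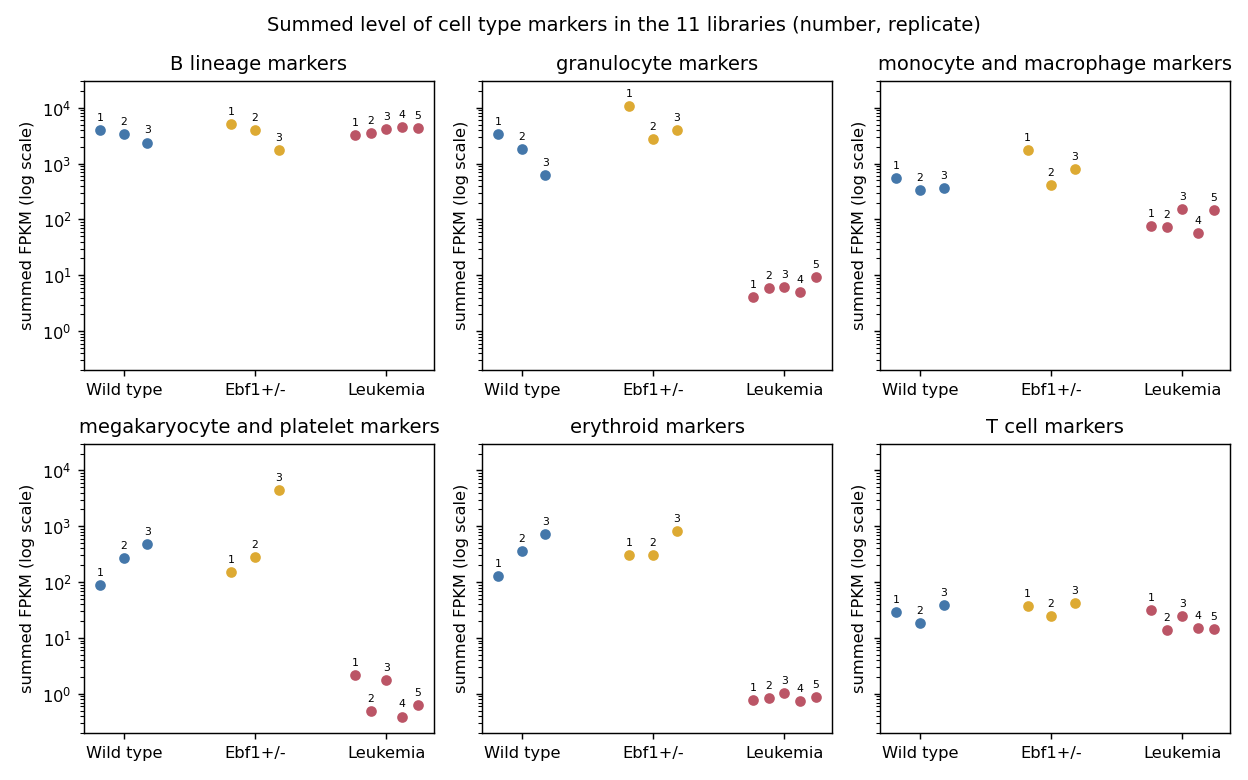
Summed FPKM of 6 marker lists in every library (points, log axis), by group. Granulocyte, platelet and erythroid markers reach their highest sums in Ebf1+/- libraries and fall below 10 FPKM in each leukemia, while B lineage markers stay between 1760 and 5090 FPKM.

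Genes of the same pathways as the 6 were compared with limma, which called 4914 of 10968 genes (44.8%) between leukemia and wild type, 2267 higher (20.7%) and 2647 lower (24.1%), or 2621 higher and 2381 lower with quantile scaling. Between leukemia and Ebf1+/- cells it called 2409 of 11161 (21.6%), 1039 higher (9.31%) and 1370 lower (12.3%). Quantile scaling turned that split too, to 1531 higher and 1141 lower. Between Ebf1+/- and wild type it called 0 of 11167 (0.0%), with 863 at an unadjusted p under 0.05, and limma's voom on whole reads recovered from the FPKM values also called 0 (854 unadjusted). The p-values measure the spread between these libraries only, and these fits took same-numbered libraries as unpaired. Of the genes in 6 lists (IGF system, adhesion receptors, FXYD proteins and Na,K-ATPase, embigin relatives and lactate transport, prostanoids, ARF and ARL GTPases), 69 were tested between leukemia and wild type. Of these 8 were higher and 26 lower, 49.3% called. Between leukemia and Ebf1+/- cells 3 of 70 were higher and 16 lower (27.1%), and between Ebf1+/- and wild type 0 of 75 were called (10 at an unadjusted p under 0.05).

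In the IGF system, 1 of 8 genes tested was higher in leukemia than in wild type and 3 were lower (median log2 difference -0.53, beside -0.04 over all genes). Igf1r, the receptor for IGF-I, averaged 3.95 FPKM in wild type, 5.7 in Ebf1+/- cells and 0.0367 in leukemia (log2 difference -2.14, limma adjusted p 0.000545), so the gene for the receptor was near 0 where Igfbp4 was highest. By library Igf1r measured 2.1, 2.96 and 6.8 FPKM in wild type and 2.51, 4.81 and 9.79 in Ebf1+/- cells, the same order within each group as the summed platelet markers (87.3, 274 and 490, then 149, 284 and 4380 FPKM), whose part in the Igf1r difference was not tested. Irs1, the adaptor downstream of it, averaged 3.49, 1.21 and 0.199 FPKM (-1.88, limma adjusted p 0.000265). Igf2r, which takes IGF-II to lysosomes, was also lower (-0.82, limma adjusted p 0.00616). Grb10, an adaptor that dampens insulin and IGF receptor signalling, was higher at 19.9 ± 13.4 FPKM against 4.38 ± 4.1 (1.99, limma adjusted p 0.0298), a call lost without wild-type replicate 1 or 2 or leukemia replicate 3, with no filter on low levels and with voom (range over alternatives 0.00508 to 0.125).

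Of 5 adhesion receptors tested, 2 were higher and 1 lower in leukemia than in wild type (median 0.48). Adgre5 (CD97) averaged 104 FPKM in wild type and 9.48 in leukemia (log2 difference -3.35, limma adjusted p 1.49e-05), the opposite course to Adgrg3. Celsr1 averaged 2.01 and 15.0 FPKM (2.11, limma adjusted p 0.0182, lost without wild-type replicate 1 at 0.0656, range 0.000456 to 0.0656). Adgrl2 averaged 3.47 and 16.0 FPKM (1.61, limma adjusted p 0.0426, lost without any 1 of the wild-type libraries or leukemia replicate 3 or 4, with no filter and with voom, range 0.0161 to 0.139). Adgrg1 (GPR56) was 88.4, 147 and 127 FPKM in the 3 groups and was not called in leukemia (0.48, limma adjusted p 0.187).

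Of 6 FXYD and Na,K-ATPase genes tested, 2 were higher and 3 lower (median -1.52). The ATPase subunits split. Atp1b3 was higher, at 553 ± 131 FPKM against 204 ± 23.0 in wild type (log2 difference 1.4, limma adjusted p 0.00101), while Atp1b1 fell from 326 to 30.5 FPKM (-3.55, limma adjusted p 0.000404). Atp1b2 averaged 27.1 and 0.0291 FPKM and was also called lower (log2 difference -4.34, limma adjusted p 0.000249).

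Of 9 genes of the embigin and lactate list, 1 was higher and 4 lower (median -0.27). Ldha, which makes lactate, averaged 234, 344 and 504 FPKM in the 3 groups and was higher in leukemia than in wild type (log2 difference 1.14, limma adjusted p 0.00134) and than in Ebf1+/- cells (0.55, limma adjusted p 0.0252). The latter call was lost without Ebf1+/- replicate 1 or 2 or leukemia replicate 2, 3 or 5 (range over alternatives 0.0208 to 0.0839). Nptn, a relative of Emb, averaged 45.7 and 16.4 FPKM (-1.41, limma adjusted p 9.07e-05). The monocarboxylate transporter Slc16a3 averaged 2.72 and 0.296 FPKM and Ldhb 3.93 and 0.0894, both called lower, as was Slc16a10. Slc16a1, the most abundant Slc16a gene of the list, averaged 97.4, 73.5 and 82.3 FPKM in the 3 groups. It was not called between leukemia and wild type (-0.27, limma adjusted p 0.268), and neither were Slc16a6 and Slc16a7.

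Of 16 prostanoid genes tested, 1 was higher and 7 lower in leukemia (median -0.2). Tbxas1, which makes thromboxane A2, the ligand of Tbxa2r, averaged 5.1 FPKM in wild type and 0.0553 in leukemia (log2 difference -2.43, limma adjusted p 0.000237). Its Ebf1+/- mean of 25.1 FPKM rested on replicate 3, at 66.1, the library with the highest platelet markers. The prostaglandin E2 receptor Ptger4 averaged 12.4 and 6.44 FPKM (-0.86, limma adjusted p 0.00112), and Gna11, a G protein alpha subunit through which Tbxa2r can signal, 13.3 and 5.8 FPKM (-1.07, limma adjusted p 0.000189). Ptges3 was higher, at 114 against 69.7 FPKM (0.7, limma adjusted p 0.00206). Of 25 ARF and ARL GTPases tested, 1 was higher and 8 lower (median -0.1). Arl5c, the most abundant, averaged 382 and 157 FPKM (-1.25, limma adjusted p 0.00478) and Arl5a lay at 46.8 to 54.6 FPKM in wild type and 11.7 to 16.5 in leukemia (-1.76, limma adjusted p 1.77e-05), the reverse of Arl11. Arf2 and Arf6 were also called lower.

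**Figure D4:**
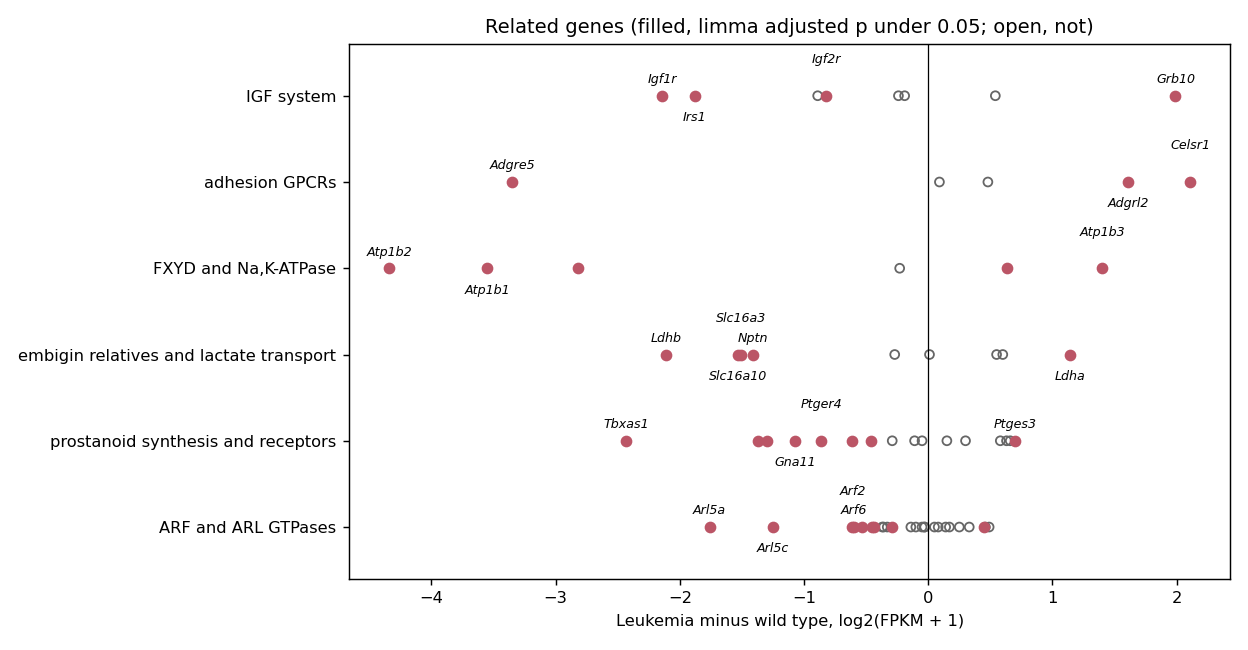
Log2(FPKM + 1) difference of leukemia minus wild type for the genes tested in the 6 lists, 1 row per list, filled where limma's adjusted p was under 0.05. Of 69 genes, 8 filled points lie to the right of 0 and 26 to the left, among them Igf1r at -2.14 and Tbxas1 at -2.43.

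The nearest gene of the table on each side of the 6 was examined (12 genes, 7 of them tested). In leukemia against wild type 3 were higher and 1 lower, 57.1% called, beside 44.8% of all genes tested. Drc7, a gene of motile cilia that lies 9.85 kb beyond Adgrg3 on the same strand, averaged 9.37 ± 3.08, 17.7 ± 7.1 and 91.7 ± 31.8 FPKM, so its means climbed in the same order as those of Adgrg3. It was higher in leukemia than in wild type (log2 difference 3.13, SE 0.29, limma adjusted p 9.07e-05) and than in Ebf1+/- cells (2.31, SE 0.32, limma adjusted p 0.00167). Drc7 overlapped between wild type (up to 12.9 FPKM) and Ebf1+/- cells (from 11.1). Leukemia replicates 1 and 5 had the highest Adgrg3 (128 and 126 FPKM) and the lowest Drc7 (59.4 and 61.7). Ebf1+/- replicate 2 had the lowest Adgrg3 (19.2 FPKM) and the highest Drc7 (25.2) of its group. In wild type, replicate 1 was lowest for both genes. Adgrg1, 3.48 kb on the other side of Adgrg3 and on the same strand, was not called. Ebpl, 19.8 kb from Arl11, was higher (1.0, limma adjusted p 0.000895), as was Parp8, 183 kb from Emb (0.61, limma adjusted p 0.0107). Top2a, a topoisomerase of dividing cells 17.1 kb from Igfbp4, was lower (-0.69, limma adjusted p 0.00233). The 3′ end of Fxyd7 lies 0.032 kb from the start of Fxyd5 on the same strand, and Fxyd7 did not exceed 1.58 FPKM, and Gipc3, 0.093 kb from Tbxa2r, was not called (0.42, limma adjusted p 0.307).

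**Figure D5:**
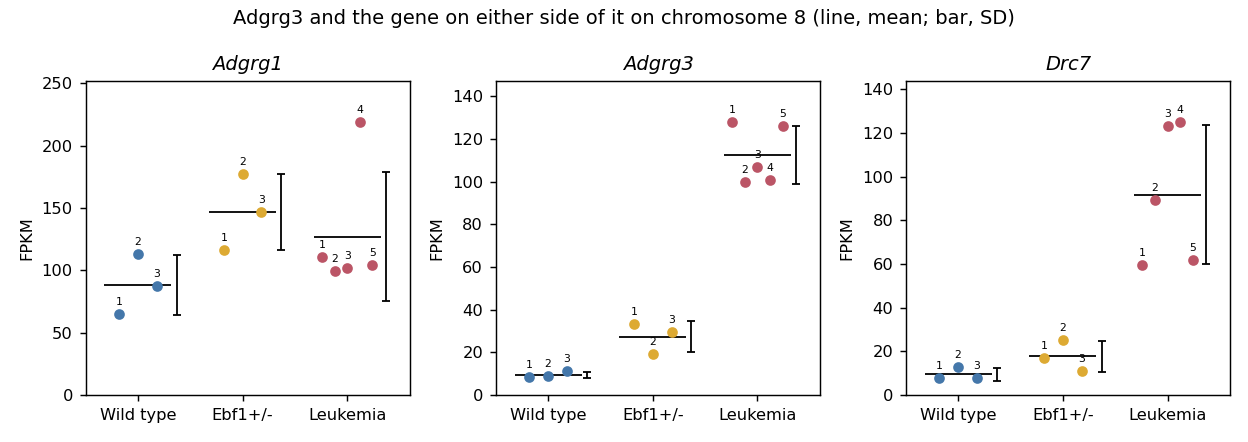
FPKM of Adgrg3 and of the gene on either side of it, Adgrg1 and Drc7, in every library (points, linear axis from 0), with group means (lines) and SD (bars). The Drc7 means go from 9.37 to 91.7 FPKM and its leukemias lie above all other libraries, while the Adgrg1 leukemias, at 99.4 to 219 FPKM, overlap both other groups.

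Genes with the profile most like each of the 6 were found by the root mean square difference of centred log2(FPKM + 1) values over the 11 libraries, among 10530 genes. Ptpn22, a phosphatase of lymphocytes, was among the closest 3 for 4 of the 6 (Igfbp4 at 0.32, Fxyd5 at 0.22, Emb at 0.29, Tbxa2r at 0.24), with means of 3.5, 8.54 and 18.9 FPKM. Hfe, an iron-regulating protein, was among the closest 3 for Fxyd5, Emb and Tbxa2r, and Sirt3, a mitochondrial deacetylase, was closest to Tbxa2r (0.21). Plac8 and Pik3r6 followed Ptpn22 for Igfbp4. Cd244, a receptor of the SLAM family, was closest to Adgrg3 (0.33), before C1qtnf6 and Fgd2. For Arl11 these were Cyp2j9 (0.24), Slc25a45 and Cisd3, for Fxyd5 also Slc17a9, and for Emb also Relt. In wild type Hfe averaged 0.961 FPKM (13 to 33 reads), C1qtnf6 0.856, Cd244 1.34, Cyp2j9 1.52 and Pik3r6 1.68. These levels lie near the added 1 FPKM, which understates their differences, so the likeness of these genes depends on it. Of the 6 themselves, Adgrg3 and Arl11 lay farthest apart (0.99).

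Besides the 4 of the 6, 197 other genes had no overlap at both steps and a leukemia mean of at least 5 FPKM. Those with the largest smaller step were Rnase12 (log2 steps 3.32 and 3.79), Gimap4 (1.95 and 3.28), Myl10 (1.94 and 1.96), Egfl7 (1.55 and 1.85), Rnase10 (1.32 and 1.97) and Tmem255a (1.19 and 2.28). Adgrg3, at 1.42 and 2.03, lay within this range, and Igfbp4, at 1.48 and 1.08, just below it. These genes too were picked for their order and were given no test.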

How the data were processed

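RNA sequencing libraries were grouped by their labels into wild type (3), Ebf1+/- (3) and leukemia (5). Levels are FPKM values in 1 table of 23071 identifiers that the authors deposited. Wild-type and leukemia libraries have BWA 0.7.12 beside them in the submitters' processing notes, Ebf1+/- libraries TopHat2 and Cufflinks, all with build mm10. How reads were counted, and on which annotation, is not given in the sources used here. The table held 0 immunoglobulin chain genes and 0 mitochondrial genes, so FPKM values are relative to totals without them, and 27 identifiers were date serial numbers. GENCODE M21 symbols matched 22014 identifiers (95.4%). FPKM values of 17380 of 17380 genes above 0 were whole reads within 0.001 read once lengths and totals were solved, and intervals cover counting error only.

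The 6 genes, the gene lists and the motifs were chosen with earlier results of these data known, and the TATA box was added after the promoters were read. Tests used limma 3.58.1 (R 4.3.3) on log2(FPKM + 1), two-sided, with a trended eBayes and the 2 groups of a comparison alone in each fit. They covered genes averaging 1 FPKM or more over those libraries, and a Benjamini-Hochberg p under 0.05 was a call. The fit was tested on simulated data. Python 3.11.15 with pandas 2.3.3 and NumPy 2.4.6 made the tables, and Matplotlib 3.10.9 the figures.

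Named beside the 6 are Pax5 and Ebf1, up to 4 called genes of smallest p and the most abundant gene of each list, the 3 genes of most similar profile, up to 6 other genes that climbed at both steps, and the neighbours. Immunoglobulin and T cell receptor segments, symbols of Gm and digits, ending in Rik or with -ps, and small RNA genes were left out of the last 3. Relatives given by rank within a family, Igfbp7, Ptger1 and Bsg, and Igf1, Slc16a1, Slc16a6 and Slc16a7 were named after their values were seen. Some genes that the rule names are not reported here.

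Same-numbered wild-type and Ebf1+/- libraries deviated together (correlations 0.65, 0.32 and 0.69 over 11173 genes, each over 0.1). They were taken as pairs only in the same-numbered folds and in the replicate block. The main fits and the SE of the steps took all libraries as independent, so variation shared within pairs counts there as error. The labels state no shared day. For leukemia these correlations were -0.13 to 0.07. The alternatives tried were a replicate block, each library left out, a pseudocount of 0.1, no filter or a minimum of 5 FPKM, median-ratio and quantile scaling, a joint fit of the 3 groups, and voom on the recovered reads.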

Additional observations from a re-analysis of the deposited data

Results flagged for a closer look

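Of 40 genes examined, 7 had 1 leukemia apart from the other 4, by a gap of more than 0.71 of the range. For normally distributed values, chance sets about 1 in 20 groups apart in this way. FPKM values need not be so distributed, and the share over all genes is not given here. The count therefore cannot be read as an excess in these genes. Igfbp4 was 122 FPKM in leukemia replicate 5 and 171 to 189 in the others. In the same leukemia Igf1, which encodes a ligand that Igfbp4 binds, was 11.5 FPKM (1290 reads), against 0.0 to 0.103 FPKM in the others. Leukemia replicate 4 stood apart for the other 5 genes. Arl11 was 21.3 FPKM there and 13.6 to 14.8 in the others. Adgrg1, the neighbour of Adgrg3, was 219 FPKM against 99.4 to 111. Parp8, the neighbour of Emb, was 14.2 FPKM against 10.5 to 11.5. Slc16a10 was lower there, at 1.01 FPKM against 1.3 to 1.38. Rnase10 was 63.8 FPKM against 3.67 to 12.1.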

How the results depend on the processing

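Each log2 step of each of the 6 genes kept its direction under all 14 alternatives and moved by less than 1 SD between libraries. Means climbed at both steps for 6 of 6 throughout, and the number with no overlap at both steps was 4 to 6, with 6 reached without Ebf1+/- replicate 1. The 0 genes called between Ebf1+/- and wild type became 3 with a pseudocount of 0.1, 1 with quantile scaling, 23 with all 3 groups in 1 fit, and 0 to 5 when 1 library was left out (5 without Ebf1+/- replicate 3). The list genes called there were 0, and 0 to 1 when 1 library was left out. The replicate block left the Ebf1+/- count at 0 and lowered the 2409 genes called between leukemia and Ebf1+/- to 944, and under it the calls of Pax5 (limma adjusted p 0.129), Arf6 (0.0521) and Parp8 (0.0502) between leukemia and wild type, and of Atp1b3, Ldha, Ptger4 and Arf2 between leukemia and Ebf1+/-, were lost. The leukemia numbers did not pair with those of the other groups. With no filter the list genes called between leukemia and Ebf1+/- went from 19 to 30 and the neighbours from 1 to 2. The neighbours ranged from 1 to 2 when 1 library was left out, with 2 without Ebf1+/- replicate 1. The total of genes called between leukemia and wild type stayed within 1.5 times the main one, at 3794 to 4705 with 1 library left out and 3678 to 5866 otherwise. Counts of single lists moved more there. Prostanoid genes called higher went from 1 to 3 with quantile and 2 with median-ratio scaling, ARF and ARL genes from 1 to 2 with both, and with voom adhesion receptors went from 2 to 1 and IGF genes from 1 to 0. Of the values of single named genes under alternatives, 1466 kept their direction and side of the threshold, 35 lost a call and 9 gained one, and 0 reversed. Depth limits Arl11 most, at 85 reads in 1 library.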
